A study of Homo sapiens with 4 samples.

Results

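Classical cadherins are transmembrane proteins that join neighbouring cells through calcium-dependent contacts between their extracellular repeats, while their cytoplasmic tails bind catenins and, through these, actin. Type I cadherins (E-, N-, P- and R-cadherin among them) and type II cadherins share this plan and differ in how their outermost repeats interlock. Carcinoma cells with mesenchymal traits commonly carry N-cadherin in place of E-cadherin. Talin, the protein encoded by the gene silenced here, belongs to the other adhesion system of the cell and links integrins to actin.

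The genes described are 10 named cadherins out of 60721 genes in the count table: the type I members CDH1, CDH2, CDH3 and CDH4, the type II members CDH6, CDH10, CDH11 and CDH24, the divergent type II member CDH5, and CDH13. The last is T-cadherin, which is held in the membrane by a lipid anchor and lacks the catenin-binding tail, so it belongs to the cadherin superfamily rather than to the classical cadherins. All 10 were found by symbol. They were chosen by family and with the knowledge that CDH2 and CDH6 move in opposite directions between the groups, so their differences between the groups are given as a description, without p values. Whether a member passed the threshold set for all genes is stated below as description too, not as a test of the chosen members.

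The cells were Hs578T, an established line from a human breast carcinoma. All were co-transfected with GFP and with 1.6 µM of either a control RNA without a target (SCR) or TLN1 siRNA (siTLN1), and RNA was collected 48 h later. Each group held 2 biological replicates of this 1 line, as 1 library each. Total counts per library ran from 31854322 to 46353297. Levels are in CPM, the counts of a gene relative to the size of its library after scaling by the TMM method, and in CPM per kilobase of exon wherever genes are compared with each other. TLN1 was at 868 and 874 CPM in SCR and at 51.9 and 44.8 CPM in siTLN1, 5.55% of the SCR mean (log2 fold change −4.17, edgeR quasi-likelihood test, Benjamini-Hochberg adjusted p 3.89e-13). Its paralog TLN2 was at 77.4 and 65.3 CPM in SCR and 76.6 and 65.8 CPM in siTLN1. In bulk RNA, fewer cells that express a gene and less RNA per cell cannot be told apart. The libraries of a group are called a and b. An exact permutation test of 2 libraries against 2 cannot go below a two-sided p of 0.333, so tests come from the fit across all genes.

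The mesenchymal character of the line was visible in its markers. The 12 mesenchymal markers, CDH2 and CDH11 among them, summed to 59897 to 61900 CPM in SCR and to 57529 to 66270 CPM in siTLN1, and all 12 passed the filter on low counts. Most of this sum came from FN1, COL1A1 and COL1A2, with SCR means of 24926, 12239 and 8331 CPM. Those of CDH2 and CDH11 were 552 and 287 CPM. The 14 epithelial markers summed to 124 to 154 CPM in SCR and 133 to 144 CPM in siTLN1, nearly all of it from the keratin genes KRT18 and KRT8, and 11 of the 14 stayed under 1 CPM in every library. The labels call the cells epithelial by origin, yet EPCAM was at 0 to 0.144 CPM and CDH1 at 0.409 to 0.851 CPM. Of 10 endothelial markers 6, and of 10 immune markers 9, stayed under 1 CPM in every library, with CD3E, LYZ and NKG7 among those at 0.

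N-cadherin was the most abundant cadherin transcript of the control cells. Per kilobase of exon, CDH2 stood at 119 CPM in SCR, above 98.4% of the tested genes, followed by CDH11 (OB-cadherin, typical of mesenchymal and bone-forming cells) at 21.6, CDH13 at 18.8, CDH6 (K-cadherin, known from kidney development) at 4.21 and CDH24 at 1.79. The other 5 members lay below 0.2 CPM per kilobase: CDH3 at 0.196, CDH10 at 0.185, CDH1 at 0.0759, CDH4 at 0.0136 and CDH5 at 0.00236. In this order the SCR libraries of CDH3 and CDH10 overlapped, as did those of CDH4 and CDH5, whereas each other pair of neighbours was separated in both libraries. The steps from CDH2 to CDH11 and CDH13, and the order of CDH11 and CDH13, depend on the length used. Per kilobase of the transcript with the longest coding sequence, the ratio of CDH2 to CDH11 in SCR was 3.04 in place of 5.50, and CDH13 (76.0) stood above CDH11 (41.9). The ratio of CDH2 to CDH13 was then 1.68 in SCR and 0.877 in siTLN1, in place of 6.35 and 3.32 per kilobase of exon, so that CDH13 rather than CDH2 came first in siTLN1.

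CDH2 encodes N-cadherin. It lies on the minus strand of chromosome 18 (GRCh38, 27950966 to 28177130; ENSG00000170558.9). SCR libraries a and b held 18088 and 18620 counts of it, against 11019 and 13749 in siTLN1 libraries a and b. After scaling these were 569 and 535 CPM in SCR against 303 and 293 CPM in siTLN1. Both siTLN1 libraries lay far below both SCR libraries, and the groups did not overlap. The siTLN1 mean of 298 ± 7.16 CPM (SD, n = 2) was 53.9% of the SCR mean of 552 ± 24.3 CPM (SD, n = 2). The fit gave a log2 fold change of −0.89 and a standard error of 0.10. In the authors' deposited table of log2 CPM, CDH2 read 9.15 and 9.06 in SCR replicates 1 and 2 and 8.24 and 8.19 in siTLN1 replicates 1 and 2.

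CDH6 encodes K-cadherin, a type II member. It lies on the plus strand of chromosome 5 (31193686 to 31329146; ENSG00000113361.13). Its counts were 1757 and 1726 in SCR and 3085 and 3549 in siTLN1, which is 55.3 and 49.6 CPM against 84.7 and 75.5 CPM. Here both siTLN1 libraries were the high ones, again without overlap. The SCR mean was 52.4 ± 4.04 CPM (SD, n = 2). The siTLN1 mean was 80.1 ± 6.52 CPM (SD, n = 2), or 153% of SCR, for a log2 fold change of 0.61 (standard error 0.10). The 4 ratios of a siTLN1 to an SCR library ran from 1.37 to 1.71 for CDH6 and from 0.514 to 0.566 for CDH2. The pseudogene DUX4L51, on the same strand, covers 8.91% of the CDH6 exon bases, so part of its reads could not be given to 1 gene.

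CDH24 encodes another type II cadherin and was the third member whose difference passed the threshold of the fit across all genes. It lies on the minus strand of chromosome 14 (23047062 to 23057538; ENSG00000139880.19). Its level was 6.10 and 7.32 CPM in SCR and 10.6 and 9.07 CPM in siTLN1, from 194, 255, 387 and 426 counts. The siTLN1 libraries were higher and did not overlap with SCR, at 147% of its mean and a log2 fold change of 0.55 (standard error 0.15). This call was lost with DESeq2, with no filter on low counts, and when either library a was left out (SCR or siTLN1), where the log2 fold change ran from 0.42 to 0.56.

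**Figure D1:**
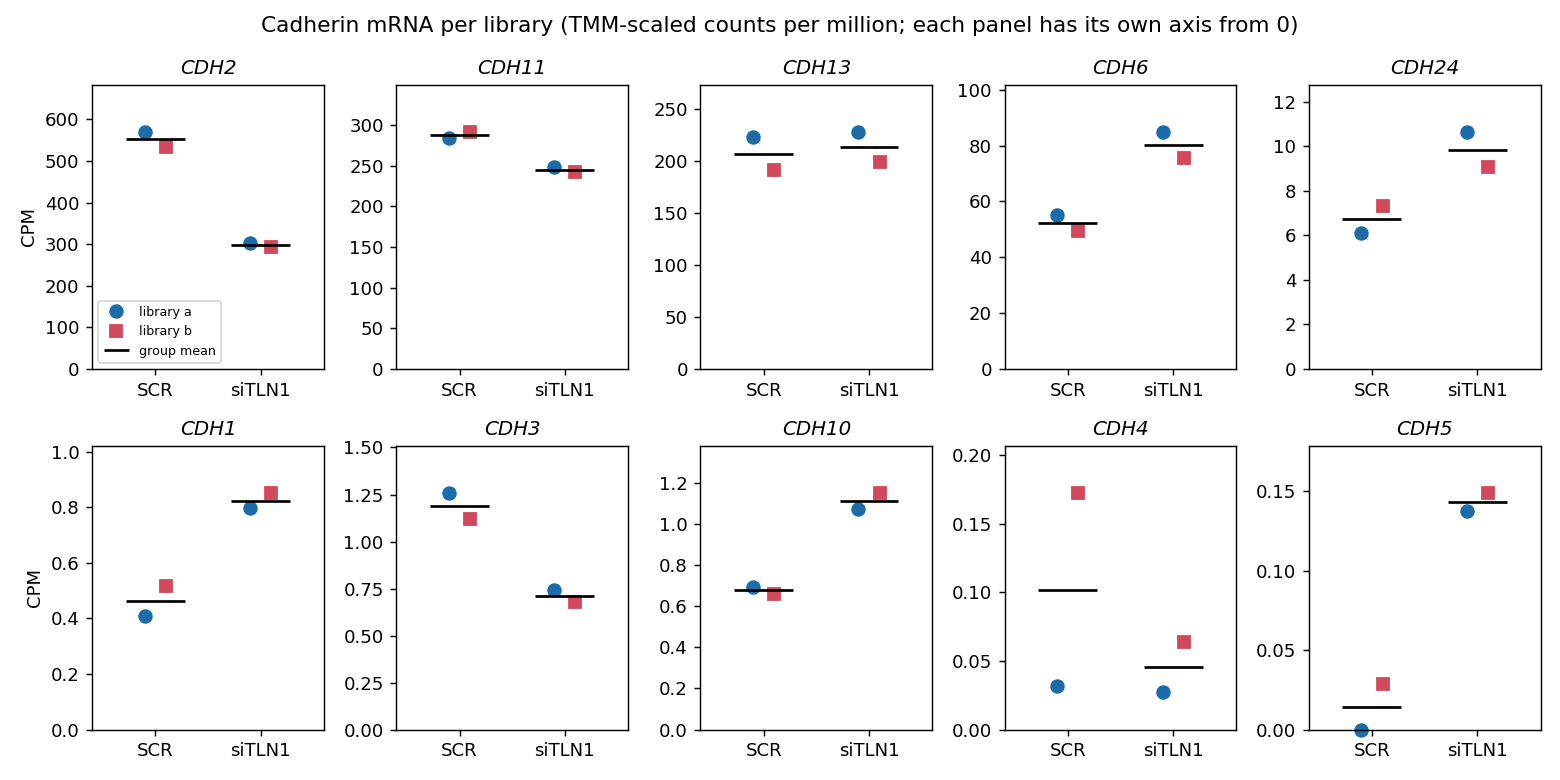
TMM-scaled CPM (vertical axis, from 0 and different in each panel) of the 10 cadherin genes in SCR and siTLN1. Circles are library a, squares library b and lines group means; CDH2 went from 552 to 298 CPM and CDH6 from 52.4 to 80.1 CPM, while CDH1, CDH3, CDH10, CDH4 and CDH5 stayed below 2 CPM in every library.

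CDH11 and CDH13, the next most abundant members, differed less than CDH2 and CDH6. CDH11 (minus strand of chromosome 16, 64943753 to 65126112; ENSG00000140937.14) was at 284 and 291 CPM in SCR and 248 and 242 CPM in siTLN1. The siTLN1 libraries were the lower ones, without overlap, at 85.2% of the SCR mean. The log2 fold change of −0.23 (standard error 0.09) did not pass the threshold. CDH13 (plus strand of chromosome 16, 82626965 to 83800640; ENSG00000140945.17) was at 223 and 191 CPM in SCR and 228 and 199 CPM in siTLN1. Its groups overlapped, and its log2 fold change of 0.04 (standard error 0.10) changed sign when SCR library b (−0.06) or siTLN1 library a (−0.05) was left out. Exons of the antisense gene CDH13-AS2 cover 21.4% of the exon bases of CDH13, and the counting did not separate strands.

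E-cadherin, the epithelial counterpart of CDH2, was measured at the edge of detection. CDH1 (plus strand of chromosome 16, 68737292 to 68835541; ENSG00000039068.19) had 13 and 18 counts in SCR and 29 and 40 in siTLN1, or 0.409 and 0.517 against 0.797 and 0.851 CPM. The siTLN1 libraries were the higher ones, but exact Poisson 95% intervals, which cover counting error only, overlapped between groups (0.306 to 0.817 CPM in SCR library b, 0.534 to 1.14 CPM in siTLN1 library a). Its log2 fold change of 0.83 (standard error 0.35) did not pass the threshold. Per kilobase, CDH2 exceeded CDH1 1832 and 1362 times in SCR, and 500 and 453 times in siTLN1. Exons of an antisense gene cover 5.69% of the exon bases of CDH1.

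CDH3, which encodes P-cadherin, lies beside CDH1 (plus strand of chromosome 16, 68636189 to 68722616; ENSG00000062038.14) and ends 14675 bases before CDH1 begins. It had 40 and 39 counts in SCR and 27 and 32 in siTLN1, or 1.26 and 1.12 against 0.742 and 0.681 CPM. Both siTLN1 libraries lay below both SCR libraries for CDH3, and above them for its neighbour CDH1. The exact Poisson 95% intervals of CDH3 overlapped between groups (0.796 to 1.53 CPM in SCR library b, 0.489 to 1.08 CPM in siTLN1 library a). The log2 fold change of CDH3 was −0.74 (standard error 0.29) and did not pass. Exons of CDH3-AS1, on the opposite strand, cover 8.84% of its exon bases.

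CDH10, a type II cadherin known mainly from the brain, had 22 and 23 counts in SCR and 39 and 54 in siTLN1 (minus strand of chromosome 5, 24487100 to 24644978; ENSG00000040731.10). These are 0.692 and 0.660 CPM against 1.07 and 1.15 CPM, higher in both siTLN1 libraries, with a log2 fold change of 0.72 (standard error 0.30) that did not pass. Its exact Poisson 95% intervals overlapped between groups (0.419 to 0.991 CPM in SCR library b, 0.762 to 1.47 CPM in siTLN1 library a).

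CDH4 and CDH5 did not pass the filter on low counts and have no row in the authors' deposited log2 CPM table. CDH4, R-cadherin (plus strand of chromosome 20, 61252261 to 61940617; ENSG00000179242.16), had 1 and 6 counts in SCR and 1 and 3 in siTLN1. Its ratio of siTLN1 to SCR, over summed counts, was 0.457 with an exact 95% interval of 0.0980 to 1.80, which covers counting error only. CDH5, VE-cadherin of the endothelium (plus strand of chromosome 16, 66366622 to 66404784; ENSG00000179776.19), had 0 and 1 counts in SCR and 5 and 7 in siTLN1. Its ratio was 9.59 with an exact interval of 1.42 to 410, at a level no higher than 0.149 CPM. This interval too covers counting error only. Replicate libraries differed by more than counting error across genes, so it is no test of CDH5. Beside it, the 10 endothelial markers summed to 21.3 to 22.5 CPM in SCR and 18.4 to 19.4 CPM in siTLN1, 5 of the 9 others had a higher and 4 a lower mean in siTLN1, and their part in the CDH5 counts was not tested.

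Of the 10 members, 8 could be tested, and all 8 reached the filter's minimum in every library of both groups. The fit called 3 of them, 2 higher and 1 lower in siTLN1. Over all 16137 genes tested it called 6.07%, with 2.30% higher and 3.77% lower; without siTLN1 library a the fit called 324 genes in place of 980. The libraries of 7 of the 8 did not overlap between groups (4 higher, 3 lower), beside 48.4% of all tested genes (23.9% higher, 24.6% lower). Since the choice of members used this contrast, nothing is read from these shares. The median log2 fold change was 0.29 over the 8 members and 0.0033 over all tested genes, and the median size of the change, whatever its direction, was 0.67 and 0.16. CDH1, CDH3 and CDH10, which had few counts and were not called, were among the members with the largest changes. For this reason and because of the choice of members, nothing is read from these medians either.

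**Figure D2:**
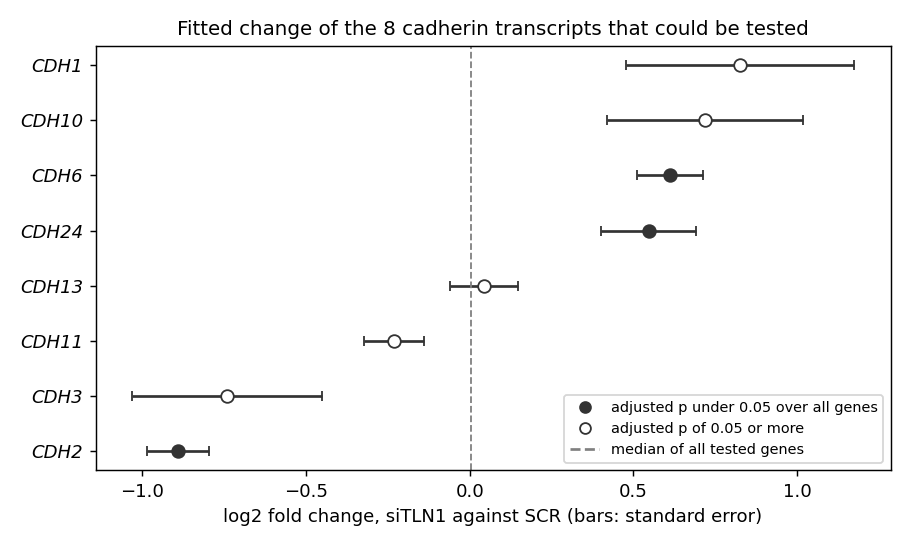
Fitted log2 fold change of siTLN1 against SCR (horizontal axis) with its standard error for the 8 tested cadherins, with filled points for an adjusted p under 0.05 over all genes and a dashed line at the median of all tested genes. CDH2 stands at −0.89 and CDH6 at 0.61, both with a standard error of 0.10, and the members with few counts (CDH1, CDH3, CDH10) have the wide bars.

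The lower total of the 10 members in siTLN1 lay in CDH2. Their summed level was 171 and 161 CPM per kilobase in SCR, and 115 and 109 in siTLN1. Without CDH2 the sums were 48.1 and 45.6 in SCR against 49.5 and 45.3 in siTLN1, so these overlapped. They overlapped per kilobase of transcript as well (132 and 121 against 133 and 120.5). The difference in mean level, siTLN1 minus SCR, was −54.9 CPM per kilobase for CDH2 and 2.23 for CDH6.

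Per kilobase of exon, the share of CDH2 in the summed level was 71.8% and 71.7% in SCR and 56.9% and 58.2% in siTLN1. Per kilobase of transcript it was 49.9% and 50.5% in SCR and 34.4% and 35.9% in siTLN1, where CDH13 made up 41.1% and 38.9%. The share of CDH2 was thus lower in both siTLN1 libraries with either length, while its size and its place as the largest share in siTLN1 rest on the length. The share of CDH6 per kilobase of exon was 2.60% and 2.47% in SCR and 5.93% and 5.60% in siTLN1. On that scale CDH2 was at 27.64 and 28.97 times CDH6 in SCR and at 9.59 and 10.4 times in siTLN1. Type II members together stood at 27.63 and 28.04 CPM per kilobase in SCR and at 28.6 and 27.0 in siTLN1. Per kilobase of exon their sum therefore overlapped between groups, with CDH11 lower and CDH6 and CDH24 higher. Per kilobase of transcript it did not, and both siTLN1 sums lay below both SCR sums. There CDH11 was at 41.4 and 42.4 in SCR and 36.1 and 35.25 in siTLN1, and CDH6 at 6.52 and 5.85 against 10.0 and 8.91. The type I sum, nearly all CDH2, was 123 and 116 in SCR against 65.6 and 63.4 in siTLN1.

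**Figure D3:**
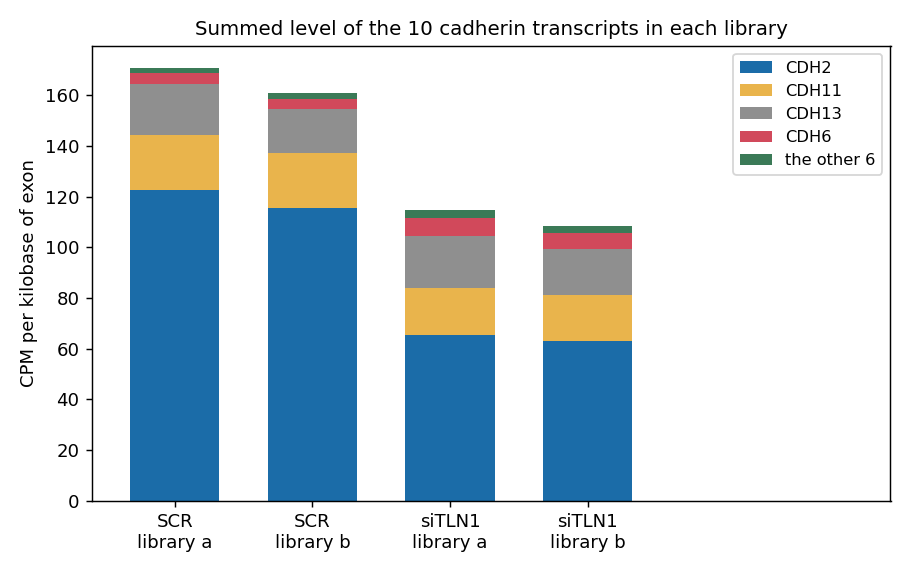
Level in CPM per kilobase of exon (vertical axis, from 0), stacked over the 10 cadherins, in each of the 4 libraries (horizontal axis). The total is 171 and 161 in SCR and 115 and 109 in siTLN1, and the CDH2 segment shrinks from 71.8% and 71.7% to 56.9% and 58.2% of it; per kilobase of transcript, which is not plotted, it is 49.9% and 50.5% in SCR and 34.4% and 35.9% in siTLN1, below CDH13 there.

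Sequence was examined for the 7-base word GACAACA, which earlier work on these data had linked to lower fold changes across genes and which occurs in the coding sequence of TLN1. The sequence of the siRNA is not given in the sources used here. In the transcript with the longest coding sequence of each gene (GENCODE 29, GRCh38), the word occurs in the 3′ UTR of 2 members, CDH2 and CDH11. In other annotated transcripts, 1 of 2 of CDH10, which was higher in siTLN1, and 2 of 10 of CDH13, whose groups overlapped, hold it in the 3′ UTR too. The sites of the chosen transcripts are shown, with the TLN1 site; capitals mark the word, and each is written 5′ to 3′ on the gene's strand with 9 bases on each side.
CDH2, 3′ UTR, word at chr18:27951051-27951057, minus strand: gagacttctGACAACAgctttgcct
CDH11, 3′ UTR, word at chr16:64947218-64947224, minus strand: attagaaagGACAACAgttctgagc
TLN1, coding sequence, word at chr9:35706037-35706043, minus strand: agaggacctGACAACAaccctcaac

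Among 11985 tested protein-coding genes other than TLN1 with a 3′ UTR of at least 100 bases, 7.91% held the word there. Their median log2 fold change was −0.10 and 16.8% were called lower, against 0.02 and 2.96% for the genes with the word in neither region. The word was taken up because of this link in these same data, so the shares describe it and are no independent test. For CDH2 the copy lies at base 1096 of a 3′ UTR of 1187 bases, and only 1 of its 5 annotated coding transcripts holds it there, against 2 of 10 for CDH11. The part of the word in the difference of CDH2 was not tested.

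The word was found in coding sequences of members as well. It occurs in the coding sequence of 6 of the 10 members (CDH1, CDH2, CDH4, CDH6, CDH10 and CDH13), and in 15.9% of the 11985 genes searched. Of the 8 members within that set, 5 hold it, and CDH4 is outside it. The 15.9% was not matched to the coding length of the members, 2283 to 2751 bases. Of 11 such copies, 9 start on the first base of a codon, where the word reads as the codon GAC (aspartate) followed by AAC (asparagine). The place of these copies in the protein was not examined. CDH6 has 4 coding copies and none in the 3′ UTR, and was the higher in siTLN1. CDH2 has 2 coding copies beside that in the 3′ UTR. A pair of them is shown to set a member that was lower beside one that was higher.
CDH2, coding sequence, word at chr18:28005906-28005912, minus strand: gacatgaatGACAACAgacctgagt
CDH6, coding sequence, word at chr5:31322988-31322994, plus strand: gccatagagGACAACAaattacgaa

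CDH3, CDH5 and CDH24 hold the word in neither region of any annotated coding transcript. Among the members called by the fit, CDH2 (lower) and CDH6 (higher) hold the word, and CDH24 (higher) does not. The part of the word in these differences was not tested. Over all genes with the word in the coding sequence and none in the 3′ UTR, the median log2 fold change was −0.02, with 6.28% called lower and 2.31% called higher.

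Other cadherins of the same family were read from lists that included every remaining classical member. Of the 9 other classical cadherins, 4 passed the filter and 0 were called by edgeR (0 at an unadjusted p under 0.05, and 0 with DESeq2 and with limma-voom). CDH18, a type II cadherin, was the only one of them above 2 CPM, at 12.9 and 11.2 CPM in SCR and 10.9 and 10.8 CPM in siTLN1. CDH12 stood at 0.747 to 1.32 CPM over all libraries. CDH19 and CDH22 were at 0. Desmosomal cadherins, which anchor keratin filaments rather than actin, also gave 0 calls among 3 tested (0 at an unadjusted p under 0.05, and 0 with DESeq2 and limma-voom). DSG2 was at 114 and 90.2 CPM in SCR and 120 and 95.9 CPM in siTLN1, and DSC3 had a log2 fold change of −0.06. Of 20 tested genes in the wider superfamily, 2 were called. These were the calsyntenins CLSTN2, which fell (log2 fold change −2.40, standard error 0.16, adjusted p 4.15e-06 by edgeR), and CLSTN3, which rose (0.65, standard error 0.13, adjusted p 0.00568). CLSTN3 lost its call without siTLN1 library a (0.50).

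None of 4 catenins of the adherens junction passed edgeR's test. CTNNB1 (beta-catenin) was at 393 and 390 CPM in SCR and 442 and 442 CPM in siTLN1, which gave a log2 fold change of 0.18 (edgeR adjusted p 0.314). CTNNA1 (alpha-catenin, the link to actin) was at 547 and 526 against 458 and 465 CPM, with −0.22 and an adjusted p of 0.202 by the same test. CTNND1 (p120-catenin, which holds cadherins at the membrane) had a log2 fold change of 0.19 and JUP (plakoglobin) one of 0.31. These 4 were picked as widely known catenins, outside the rule for naming genes. Of 16 tested catenins and plaque proteins, edgeR called 0 higher and 2 lower (8 at an unadjusted p under 0.05), DESeq2 called 1 higher and 1 lower, and limma-voom called 1 lower. Without SCR library b edgeR called 1 higher and 3 lower, and without either library a it called 0. The median log2 fold change was 0.15. SHROOM3, which recruits contractile machinery to apical junctions, had −0.45 (adjusted p 0.0265), and PDZD11, a partner of the junction protein PLEKHA7, had −0.40 (adjusted p 0.0498), both by edgeR. The call of PDZD11 was lost with RLE scaling, with DESeq2, with limma-voom, with no filter on low counts, and when either library a was left out. That of SHROOM3 was lost with no filter on low counts and without any 1 of SCR library a, siTLN1 library a and siTLN1 library b.

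Genes for the processing, trafficking and turnover of cadherins gave 0 calls among 22 tested with edgeR (6 at an unadjusted p under 0.05, 2 calls with DESeq2 and 0 with limma-voom). The most abundant of them were the matrix metalloproteinases MMP2, at 830 and 970 CPM in SCR and 1127 and 1156 CPM in siTLN1 (log2 fold change 0.34, adjusted p 0.0668 by edgeR), and MMP14, with 0.27. The transcription factors known to repress or activate cadherin genes in epithelial-mesenchymal transition gave 1 call among 11 tested. This was TCF4, an E-protein that can repress CDH1, which rose from 34.9 and 29.5 CPM in SCR to 52.2 and 42.8 CPM in siTLN1 (log2 fold change 0.56, standard error 0.12, adjusted p 0.0105 by edgeR). Its call was lost without siTLN1 library a (0.41). Of the epithelial factors in that list, GRHL2 and OVOL1 were at 0.

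Within the marker lists, none of the 5 tested epithelial genes was called by edgeR, nor with DESeq2 and limma-voom. Of these 5, 1 was at an unadjusted p under 0.05 by edgeR. It was CDH1, which had 13 to 40 counts per library and was chosen as a member with this contrast known, so nothing is read from it. None of the 7 tested endothelial genes was called (2 at an unadjusted p under 0.05, 0 with both other tools). The 4 tested immune genes gave 0 calls as well (0 at an unadjusted p under 0.05, 0 with both other tools). Of the 10 mesenchymal markers that are no members, 1 was called lower, SPARC, at 5119 and 4917 CPM in SCR and 3705 and 3500 CPM in siTLN1 (log2 fold change −0.48, adjusted p 0.0161 by edgeR). The call of SPARC was lost when any 1 of the 4 libraries was left out. Over all 12 mesenchymal markers, CDH2 and CDH11 included, edgeR called 2 lower, limma-voom 2 and DESeq2 3, and each called 0 higher. CDH11 was not among the DESeq2 calls. VIM (vimentin) had a log2 fold change of 0.02.

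**Figure D4:**
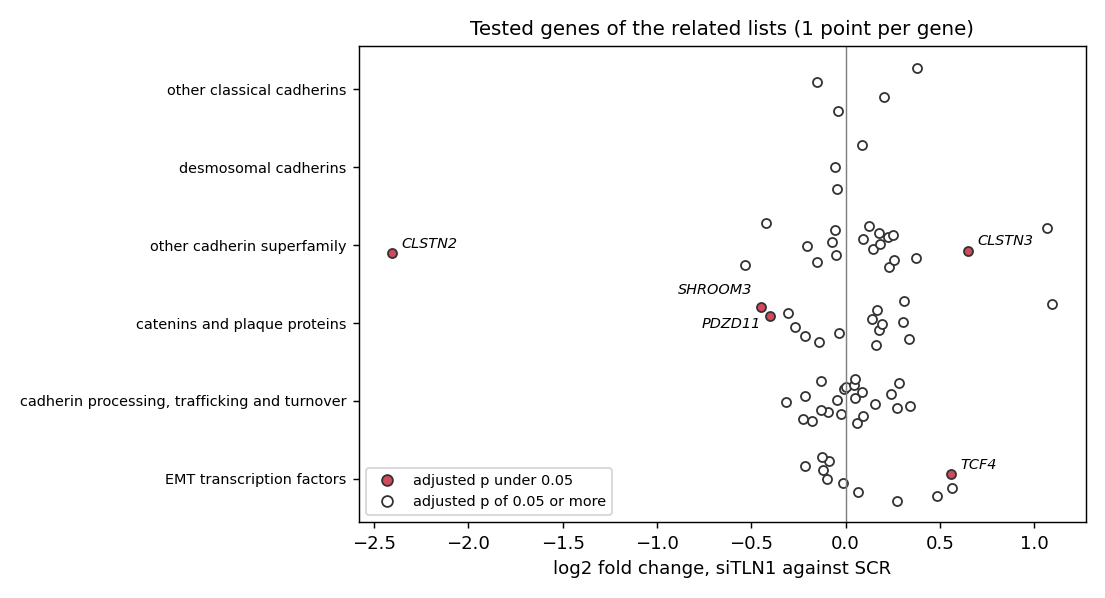
Log2 fold change of siTLN1 against SCR (horizontal axis) for each tested gene of the 6 related lists (vertical axis), 1 point per gene, filled where the adjusted p over all genes is under 0.05. CLSTN2 (−2.40), CLSTN3 (0.65), SHROOM3 (−0.45), PDZD11 (−0.40) and TCF4 (0.56) are the filled points, and no point is filled among the other classical and the desmosomal cadherins.

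The genes with the profile most like that of CDH2 over the 4 libraries, by the distance between log2 CPM values centred on each gene's mean among 10476 genes at 5 CPM or more, were TFPI2, FHAD1 and PAPPA2, at distances of 0.043, 0.051 and 0.068. TFPI2 was at 7.23 and 6.52 CPM in SCR and 3.76 and 3.64 CPM in siTLN1. For CDH6 they were GJA1, NCEH1 and LRRC8B, at distances of 0.040, 0.073 and 0.081. GJA1, which encodes the gap junction protein connexin 43, was at 296 and 270 CPM in SCR and 461 and 397 CPM in siTLN1. Only 4 libraries in 2 groups enter this measure.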

How the data were processed

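Polyadenylated RNA was sequenced from stranded libraries, per the labels' protocols. The submitters' processing notes name bcl2fastq, STAR 2.7.9a, Subread 2.0.0, edgeR 3.34.1 and GRCh38. The authors deposited raw counts per gene from featureCounts 2.0.0 in paired mode, without a strand option, on GENCODE 33, per the file headers; gene lengths are a further column in another unit, bases of exon. They also deposited log2 CPM values for 16137 genes, the same genes that filterByExpr kept here. Count columns name only their group, and a number recurring in both groups gave the letters a and b. For CDH2 and CDH6, the CPM of libraries a and b closely matched, on the log2 scale, the deposited values of replicates 1 and 2 of the same group. No column was left unmapped (0), and 0 rows named no gene.

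Genes were filtered with filterByExpr (minimum count 10, total 15), scaled by TMM and compared with edgeR 4.0.16 (R 4.3.3; estimateDisp, robust glmQLFit, glmQLFTest), with Benjamini-Hochberg adjustment over 16137 genes and a threshold of 0.05. Replicate libraries differed beyond Poisson noise (chi-square per degree of freedom 13.7 in SCR, 18.1 in siTLN1). The procedure was tested on simulated data. The alternatives tried were no filter, scaling by RLE or by total counts, a mean of 10 counts, DESeq2 1.42.0, limma-voom and limma-trend (limma 3.58.1), a replicate block and leaving out each library. Levels per transcript length were added after seeing the data.

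Members and lists were chosen with earlier results of these data known. Named genes are the members, TLN1, TLN2, up to 6 called genes per list by smallest p (where none was called, the 2 most abundant), and the 3 genes most like CDH2 and CDH6. The 4 catenins, EPCAM, VIM, FN1, COL1A1, COL1A2 and genes named as being at 0 fall outside this rule and were named after their values were seen. Python 3.11.15 with pandas 2.3.3, scipy 1.17.1 and matplotlib 3.10.9 was used for the rest.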

Additional observations from a re-analysis of the deposited data

How the results depend on the processing

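With 1 library left out, CDH2 ran from −0.93 to −0.84 and CDH6 from 0.53 to 0.70 (log2 fold change). The ratio of CDH2 to CDH11 in SCR was 1.92 as CPM per gene and 3.04 per kilobase of transcript, against 5.50 per kilobase of exon. Leaving out 1 library moved CDH13 between −0.063 and 0.16, with a negative sign where SCR library b (−0.06) or siTLN1 library a (−0.05) was absent. The number of members called ran from 2 to 3 without 1 library, that of all genes from 324 to 1100, that of related genes outside the members (6 in the fit of all libraries) from 1 to 9, and TLN1 from −4.28 to −4.07; an arm with 1 library was assumed to vary like the other group.

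The replicate numbers of the labels mark no stated pairing. Deviations of same-numbered replicates correlated across genes at 0.19, and at 0.54 for the 10487 genes with a mean of at least 5 CPM. The numbers of the count columns also recur in both groups, and whether they mark a shared preparation is not stated. With a replicate block, limma-trend called 3645 genes, 31 related genes and 4 members, CDH11 being the addition. Counts below about 50 per library (CDH1, CDH3, CDH4, CDH5, CDH10) limit those members by depth, the others by the number of libraries.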
